A study of Homo sapiens with 32 samples.

Results

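MUC1 and CLDN4, a pair of genes whose proteins sit at the surface of luminal epithelial cells, were followed in ZR-75-1 xenografts through the first 14 days of tamoxifen. All probes given either name in the study's own list of changed probes were taken, which gave 4 probes, 1 for MUC1 and 3 for CLDN4, of 333 named probes and 9912 probes on the array. That list was drawn up by the study from the same arrays, so the ratios of these genes against the control and between days chose them and are given here as a description, with no test. RNA was hybridised to 2-colour cDNA arrays, each tumor against 1 shared control pool, once as a forward array and once with the dyes swapped.

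ZR-75-1 is a human estrogen receptor positive breast cancer line, grown here as tumor fragments under the skin of both flanks of female nu/nu mice, animals that lack a thymus but keep the other host cells of a tumor. All mice carried a slow-release estradiol (E2) pellet of 0.72 mg over 60 days. The treated mice also received a tamoxifen pellet of 2.5 mg over 60 days, and their tumors were taken after 1 day (4 tumors from 2 mice), 2 days (2 tumors from 2 mice), 4 days (4 tumors from 3 mice), 7 days (4 tumors from 3 mice) or 14 days (2 tumors from 2 mice). The control was a pool of RNA from xenografts of days 0, 1, 2 and 4 of mice with E2 alone, so on days 7 and 14 tamoxifen and the longer time of growth cannot be told apart. Because it is 1 pool, the spread among control tumors is not measured.

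MUC1 encodes a transmembrane mucin of the apical surface. Its long extracellular part is heavily O-glycosylated, and its short cytoplasmic tail binds signaling and junction proteins such as β-catenin and receptors of the ERBB family. CLDN4 encodes a claudin, a membrane protein with 4 transmembrane segments that helps form the tight junction strands which seal neighboring epithelial cells and set what passes between them. Both are widely used as markers of luminal epithelium in the breast. Tamoxifen competes with estradiol for the estrogen receptor and in breast cancer cells lowers the transcription of many estrogen-induced genes. On GRCh38 MUC1 lies on chromosome 1 between 155185824 and 155192915, and CLDN4 lies on chromosome 7 between 73830996 and 73832690. The sequences of the spotted cDNA clones were not analysed here, so the transcripts that each probe detects are not resolved.

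Both genes gave bright spots. Their 4 probes lay between the 94.9 and the 96.6 percentile of brightness of the array, no spot of theirs carried the mark by which spots were left out, and the lowest signal over local background on any array was 4.19 for MUC1 and 8.52 for CLDN4. Over whole arrays, the median signal over background was between 2.29 and 6.62. One array was left out of all values: the dye swap of day 4 replicate 3, deposited as replicate 4, followed the forward array of day 4 replicate 2 with a correlation of 0.980 over the raw log ratios of all probes, where the next highest was 0.790. That tumor therefore has its forward array alone. The label of the tissue could be checked only in part, because probes had gene names only through the study's list of changed probes. That list named 8 of the 26 luminal epithelium markers, MUC1 and CLDN4 among them, and none of the keratins, EPCAM, ESR1 or GATA3. Whether other probes of the array read those genes is not known here. A ratio against a pool of the same xenografts also gives no level of a marker.

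Values are log2 ratios of tumor over control pool, averaged over both dye orientations of a tumor. Their sign follows the deposited value table and the study's list and is likely but not settled, since the scanner columns do not name the dyes: if the first channel is the Cy3 channel that the labels give the tumor on forward arrays, every sign below turns, the early and late values of MUC1 included. The study's protein stains, lower TFF3 and higher IGFBP5, run in the direction used.

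MUC1 RNA was below the pool in the first week and above it at 14 days. The mean log2 ratio was -0.69 ± 0.32 (SD, n = 4) on day 1, a level 1.61-fold below the pool. On day 14 it was 1.02 ± 0.05 (SD, n = 2), a level 2.02-fold above the pool. The change of direction fell between days 7 and 14, and no tumor was taken between them. In these bulk tumors a change in the share of cells that carry a gene and a change in its RNA per cell cannot be told apart.

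The 4 tumors of day 1 had MUC1 log2 ratios of -1.05, -0.62, -0.28 and -0.81. Those of day 2 had -0.88 and -0.44 (mean -0.66 ± 0.31, SD, n = 2). All 6 tumors of the first 2 days thus lay below the pool. On day 4 the tumors, which the labels number 1, 2, 3 and 5, had -0.11, 0.03, -1.04 and -0.60 (mean -0.43 ± 0.49, SD, n = 4), the widest spread of any day. Without replicate 3, measured on its forward array alone, the mean of day 4 was -0.22. The day 7 tumors had -0.60, -0.30, -0.60 and -0.25 (mean -0.44 ± 0.19, SD, n = 4), all below the pool again. The tumors of day 14 had 0.98 and 1.05. Both stood above all 14 earlier tumors, of which the highest was day 4 replicate 2 at 0.03.

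In order of the MUC1 level, days 1, 2, 7 and 4 came first and lay close together, and day 14 came last. The neighboring days 1 and 2 differed by 0.03 on the log2 scale and day 7 lay -0.01 from day 4, against an SD within days of 0.33 (pooled over days, 11 degrees of freedom). Days 2 and 4 differed by 0.23, which is also within that SD. The level of day 14 was 1.45 above that of day 7, or 2.74-fold, and 1.57 above the mean of the 4 earlier days.

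**Figure D1:**
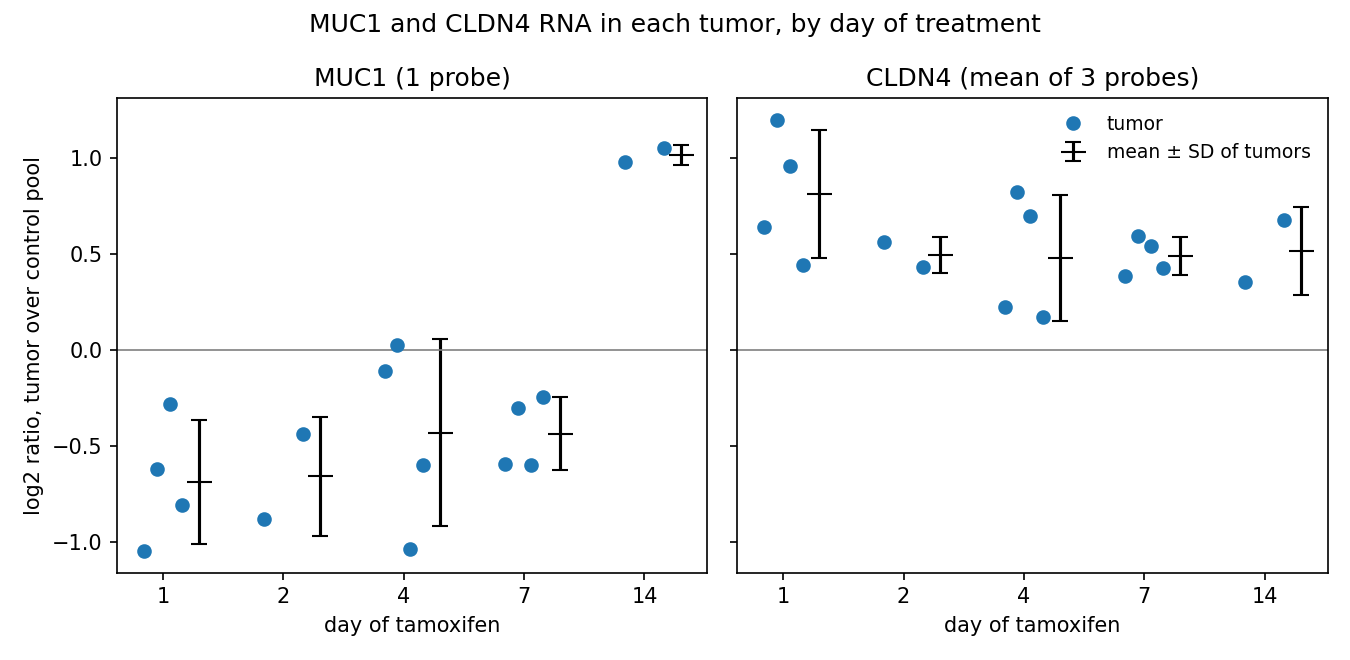
Log2 ratio of tumor over control pool (vertical axis) for MUC1 (left) and for the mean of the 3 CLDN4 probes (right) by day of tamoxifen. Points are tumors (4, 2, 4, 4 and 2 per day), and the bars give the mean ± SD of the tumors; for MUC1 both tumors of day 14 sit at about 1 and no earlier tumor is above 0.03, and for CLDN4 all 16 tumors are above 0.

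Few probes of the array showed as wide a gap. Over the 9865 probes with a value in every tumor, 322 (3.26%) had both tumors of day 14 above all earlier tumors, and 70 of these were among the 333 named probes. MUC1 was 1 of them, with 0.95 between its lowest tumor of day 14 and its highest earlier tumor, and 2 probes, MUC1 counted, had a gap at least as wide. In 350 probes (3.53% of 9912) the mean was below 0 on days 1, 2, 4 and 7 and above 0 on day 14. In 10 probes (0.101%) both tumors of day 14 were above 0 and all tumors of days 1, 2 and 7 were below 0, and MUC1 was among these. Day 4, on which 1 of 4 tumors lay above 0 for MUC1, was left out of that count. As the course of MUC1 is part of why it was chosen, these shares place it among the probes and test nothing.

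Within the study's set 2, the group of early, transient falls into which MUC1 was sorted, no other probe ended above the pool. On days 1, 2, 4 and 7 none of the 25 probes of this set had a mean above 0, with set medians of -0.74, -0.65, -0.45 and -0.45. On day 14 the set median was -0.52, MUC1 was the only 1 of the 25 above 0, and the next highest was RUNX1, a transcription factor, at -0.02. The study formed its sets by clustering the courses in these same tumors, so the low values of set 2 follow in part from that sorting.

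The 2 orientations gave the same course for MUC1. On forward arrays its mean was -0.59 ± 0.30 on day 1 (SD, n = 4) and 1.31 ± 0.12 on day 14 (SD, n = 2), and on dye swaps it was -0.79 ± 0.38 and 0.72 ± 0.22. The day 14 tumors were at 1.39 and 1.22 on forward arrays, where no earlier tumor exceeded 0.05. On dye swaps they were at 0.57 and 0.88, where no earlier tumor exceeded 0.04. The groups thus did not overlap in either orientation. The share of probes with both tumors of day 14 above all earlier ones was counted only for the mean of both orientations (3.26%). As MUC1 was chosen with this course in view, the gap is a description. The raw brightness, before background correction and normalization, was higher in the tumor channel than in the pool channel on all 4 arrays of day 14. In earlier tumors it was so on 5 of 14 forward arrays and on 0 of 13 dye swaps, though 13 of the 14 tumors lay below the pool after normalization. For day 14 replicate 1, the tumor channel of the MUC1 spot read 10220 against 4911 for the pool on the forward array and 6018 against 1523 on the swap. For replicate 2 it read 8794 against 3054 and 10980 against 5165. On the swap of day 14 replicate 1 the tumor channel was also brighter for CLDN4 probe 153508_A, at 2180 against 1161, though its normalized log2 ratio was -0.49. The raw order of the channels thus does not give the sign of a ratio by itself.

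In 4 pairs of tumors from the same mouse the MUC1 ratios were apart by 0.43 and 0.52 on day 1, 0.14 on day 4 and 0.35 on day 7. Both tumors of day 14 came from different mice. With 2 tumors, that day rests on 2 animals.

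CLDN4 RNA was above the pool at every time, with the highest mean on day 1. After it the means were level, but with median centring and no loess they were 0.28, 0.31, 0.50 and 0.71 on days 2, 4, 7 and 14. Averaged over its 3 probes, the log2 ratio was 0.81 ± 0.33 (SD, n = 4) on day 1, a level 1.75-fold above the pool. It then stood at 0.49 ± 0.09 (SD, n = 2) on day 2, 0.48 ± 0.33 (SD, n = 4) on day 4, 0.49 ± 0.10 (SD, n = 4) on day 7 and 0.52 ± 0.23 (SD, n = 2) on day 14. All 16 tumors were above 0, between 0.17 and 1.20, with a median of 0.55, and so were the 15 of them with both orientations.

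On day 1 the CLDN4 ratios of the tumors were 0.64, 1.20, 0.96 and 0.44, and on day 2 they were 0.56 and 0.43. Day 4 gave 0.22, 0.82, 0.70 and 0.17 for replicates 1, 2, 3 and 5, where the 0.70 of replicate 3 comes from its forward array alone. Without that tumor the mean of day 4 was 0.41. The days overlapped throughout: the means of days 2, 4, 7 and 14 lay between 0.48 and 0.52, while the SD within days was 0.26. On day 7 the ratios were 0.38, 0.59, 0.54 and 0.43, and on day 14 they were 0.35 and 0.68. The mean of day 1 was 0.32 above that of day 2, slightly more than the SD within days, but the tumors of both days overlapped. In order of the mean, days 4, 7, 2 and 14 were followed by day 1.

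The 3 CLDN4 probes, named 153508_A, 346130_B and 346510_A, gave nearly the same value in a tumor. Their correlations over the 16 tumors were between 0.889 and 0.967, the median SD between them within a tumor was 0.06, and the SD of their mean between tumors was 0.27. On day 1 their means were 0.78, 0.88 and 0.77, and on day 14 they were 0.52, 0.49 and 0.53. They are probes of 1 gene on the same arrays and do not add replicates. In the 4 pairs of tumors from 1 mouse the CLDN4 ratios were 0.56 and 0.51 apart on day 1, 0.60 on day 4 and 0.11 on day 7.

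CLDN4 ranked high within its set on day 1 and low on day 14. Among the 159 probes of the study's set 6, in which all 3 CLDN4 probes were placed, these ranked between 5 and 15 on day 1, where the set median was 0.36. On day 14 they ranked between 131 and 134, where the set median was 0.75. Set 6 was clustered by the study from these same courses and is described there by its rise at day 14. The set medians and these ranks thus follow in part from that sorting.

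The ratio of CLDN4 depended on the orientation of the dyes. On forward arrays the mean of its probes was 1.11 and all 16 tumors were above 0, between 0.58 and 2.02. On dye swaps the mean was -0.01, 7 of 15 tumors were above 0, and the range was from -0.59 to 0.52. Each orientation alone gave a different description of the gene: forward arrays gave a rise on each day (day means from 0.85 to 1.47), and dye swaps gave day means between -0.17 and 0.15. In day 1 replicate 1 the raw brightness of probe 153508_A was 27400 in the tumor channel against 7506 in the pool channel on the forward array, and 3492 against 5037 on the swap. The mean of both orientations, used above for 15 tumors, cancels an effect of the dye that is equal on both arrays of a tumor. It does not for day 4 replicate 3, whose value is its forward array alone.

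**Figure D2:**
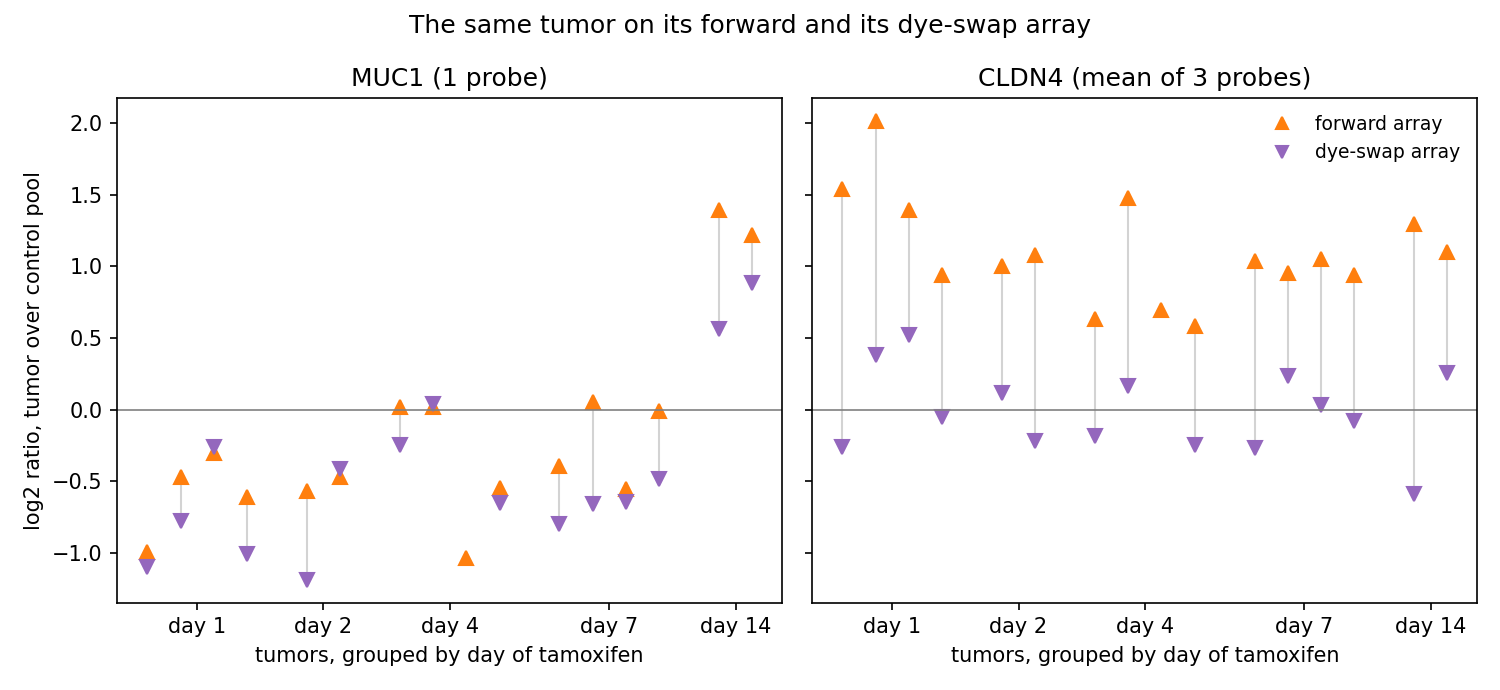
Log2 ratio of tumor over control pool (vertical axis) on the forward array (upward triangle) and on the dye-swap array (downward triangle) of each tumor, grouped by day, for MUC1 (left) and the mean of the 3 CLDN4 probes (right). A grey line joins the arrays of 1 tumor, and 1 tumor of day 4 has no swap; the CLDN4 triangles are apart in each of 15 tumors, with swaps around 0, while both MUC1 triangles of day 14 are above all earlier ones of their kind.

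The dye effect of a probe in a tumor is the distance of the forward ratio from the mean of both orientations. It comes from the difference between the arrays of a tumor, while the treatment ratio by which the genes were chosen comes from their mean. The dye effect was therefore tested (limma against 0, with the Benjamini-Hochberg adjustment over all probes). Difference and mean are uncorrelated only if both orientations have the same spread, which was not tested. For CLDN4 the dye effect was 0.53 ± 0.05 (SE, n = 15 tumors, adjusted p = 2.25e-07) for probe 153508_A, 0.59 ± 0.05 (SE, n = 15 tumors, adjusted p = 2.21e-08) for 346130_B and 0.60 ± 0.05 (SE, n = 15 tumors, adjusted p = 5.71e-08) for 346510_A. It was above 0 in 15 of 15 tumors for each probe. MUC1 had a smaller dye effect of 0.15 ± 0.04 (SE, n = 15 tumors, adjusted p = 0.00285), above 0 in 12 of 15 tumors. A call is common here, as 5229 of 9912 probes (52.8%) passed the same test. The size is less so: 1.28%, 0.918% and 0.807% of all probes had a dye effect larger in size than that of the 3 CLDN4 probes, in the order above, against 40.2% for MUC1.

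Among the named probes, 5, 3 and 2 of 333 had a dye effect larger in size than the respective CLDN4 probes, with the other CLDN4 probes counted among them. Over all 9912 probes the median size was 0.12, and over the named probes 0.14. The dye effect was 0.97, 0.99 and 1.07 times the mean treatment ratio of the CLDN4 probes and 0.44 times the size of that of MUC1. A dye effect larger than the mean treatment ratio was found in 43 of the 333 named probes (12.9%), of which 1, 346510_A, was a CLDN4 probe, and in 6305 of 9912 probes (63.6%).

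**Figure D3:**
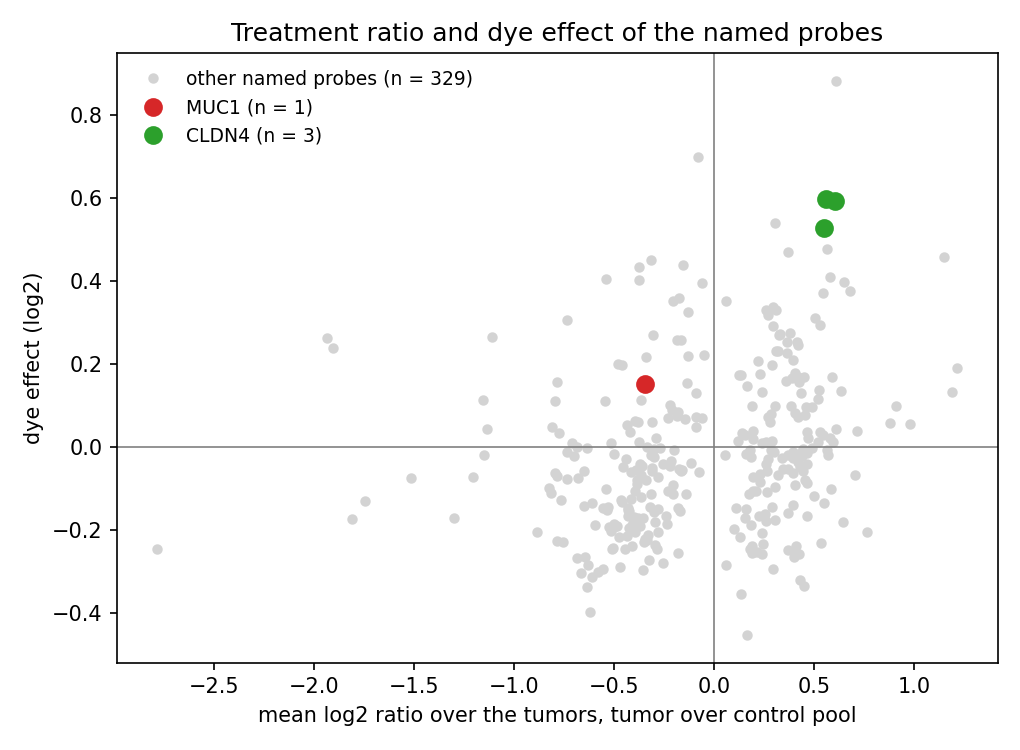
Mean log2 ratio of tumor over control pool across the tumors (horizontal axis) against the dye effect in log2 units (vertical axis) for the 333 named probes, 1 point each. The 3 CLDN4 probes sit together near 0.55 to 0.60 on the horizontal axis and 0.53 to 0.60 on the vertical axis, above nearly all other named probes, and MUC1 sits at -0.34 and 0.15.

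MUC1 and CLDN4 did not move together. Over the 16 tumors the correlation of their ratios was -0.08, and without day 14 (14 tumors) it was -0.03. The points share the control pool and the arrays, so correlations of ratios are given as descriptions, with no p.

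Genes with a course most like that of MUC1, among 252 other names on the study's list, were CD9 (r = 0.911), a tetraspanin of the cell surface, PPAP2C (0.911), a membrane lipid phosphatase, PSCA (0.906), a GPI-anchored surface protein, UNG2 (0.885) and MYLK (0.868), the kinase of myosin light chains. All 5 had their highest mean on day 14, from 0.77 for MYLK to 3.40 for PSCA. Without the tumors of day 14 the correlations fell to 0.747 for CD9, 0.764 for PPAP2C, 0.556 for PSCA, 0.464 for UNG2 and 0.598 for MYLK. None of the 5 shared the early fall of MUC1: their day 1 means were between -0.17 (PSCA) and 0.35 (UNG2). The least alike were GFRA1 (-0.892), a receptor of GDNF family ligands, MAPT (-0.860), a microtubule-binding protein, and IRS1 (-0.856), an adaptor of insulin and IGF receptors, with day 14 means of -2.54, -1.13 and -0.66.

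For CLDN4 the likeness was weaker. The highest values were those of ERBB2 (r = 0.715), the receptor tyrosine kinase HER2, SORBS3 (0.692), an adaptor at cell adhesions, ZNF36 (0.674), RRBP1 (0.669) and ETV6 (0.629). The lowest were PDZK1 (-0.527), GMNN (-0.529) and ANXA1 (-0.604). ERBB2 and RRBP1 also had large dye effects, of 0.48 and 0.88, while that of ANXA1 was -0.45. Within dye-swap arrays alone (15 tumors) the correlation with CLDN4 was 0.693 for ERBB2, 0.838 for RRBP1, 0.267 for SORBS3 and 0.335 for ZNF36.

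Other genes of the apical surface were mostly higher on day 14. Of 27 genes listed as membrane mucins and apical surface proteins, 7 were named in the study's list of changed probes, MUC1 included. On day 14, 4 of the 6 other than MUC1 were called higher and 1 lower (limma, adjusted p under 0.05), where 6.2% of all probes were called, 3.28% higher and 2.93% lower. On day 1, 1 of the 6 was higher and 1 lower, where 6.55% of all probes were called, 2.98% higher and 3.57% lower. The 4 tumors of day 1 came from 2 mice, and with 1 mean per mouse 26 probes were called that day instead of 649. Since the study took its named genes for change in these very tumors, such counts carry no evidence of their own. PSCA went from -0.17 ± 0.21 (SD, n = 4) on day 1 to 3.40 ± 0.40 (SD, n = 2) on day 14, CD24, a heavily glycosylated surface protein, from 0.44 to 1.25, and DAF, a complement regulator, from 0.74 to 1.12. SLC9A3R1, a scaffold that links apical membrane proteins to the cytoskeleton and a known estrogen-induced gene, had -0.94 ± 0.14 (SD, n = 4) on day 1 and -0.10 on day 14.

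Few tight junction genes could be set beside CLDN4. Of 34 listed, 2 were named, CLDN4 and INADL, a scaffold of the junction. By its brightest probe, INADL had 0.74 ± 0.09 (SD, n = 4) on day 1 and 0.78 ± 0.52 (SD, n = 2) on day 14. That probe was called higher on both days (limma, adjusted p under 0.05). The shares of all probes called higher were 2.98% on day 1 and 3.28% on day 14. Averaged over the tumors, the log2 ratio of that probe was 0.57, against 0.26 for another INADL probe. The dye effect was -0.02 for the brightest probe and -0.06 for the other, both far from that of CLDN4.

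Adherens junction and adhesion genes parted on day 14. Of 35 listed, 12 were named, of which 5 were called higher and 4 lower that day. Of all probes, 3.28% were called higher and 2.93% lower on day 14. PERP, a desmosomal membrane protein, was higher at 0.86 ± 0.30 (SD, n = 2). CTNNB1, which encodes β-catenin, was lower at -1.01 ± 0.24 (SD, n = 2), and CELSR2, a cadherin of the seven-pass type, was lower at -1.08 ± 0.22 (SD, n = 2). Of the 4 lower calls, those of CTNNB1, EMP2 and CELSR1 lay near the cutoff (limma, adjusted p = 0.0499, 0.0471 and 0.0394). The dye effect of CTNNB1, 0.40, was also larger in size than its mean ratio over all tumors, -0.37. LAMA3, a laminin chain, had its lowest mean on day 2, at -1.05. Both named genes of the 11 listed membrane proteases and inhibitors, PRSS8, a serine protease, and SPINT1, an inhibitor of such proteases, were called higher on days 1, 7 and 14, with 0.84 and 0.72 on day 14. On day 7, 0.242% of all probes were called higher.

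Genes that attach and extend the sugars of mucins were little covered, with 2 of 21 named. B4GALT1, a galactosyltransferase, was called lower on all 5 days, from -0.91 on day 1 to -0.55 on day 14. On days 2, 4 and 7, 0.636%, 0.686% and 0.494% of all probes were called lower. SIAT7B, which adds sialic acid to O-glycans, was called higher on day 14, at 0.59. Of 18 listed partners of the MUC1 tail and ERBB receptors, 5 were named. On day 14, 3 of them were called higher and 1, CTNNB1, lower, where 3.28% of all probes were called higher and 2.93% lower. The call of CTNNB1 on day 14 lay near the cutoff (limma, adjusted p = 0.0499). ERBB3 was at 0.69 and GRB7, an adaptor of ERBB2, at 0.70 that day. ERBB2 was highest on day 1, at 0.82 ± 0.18 (SD, n = 4).

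**Figure D4:**
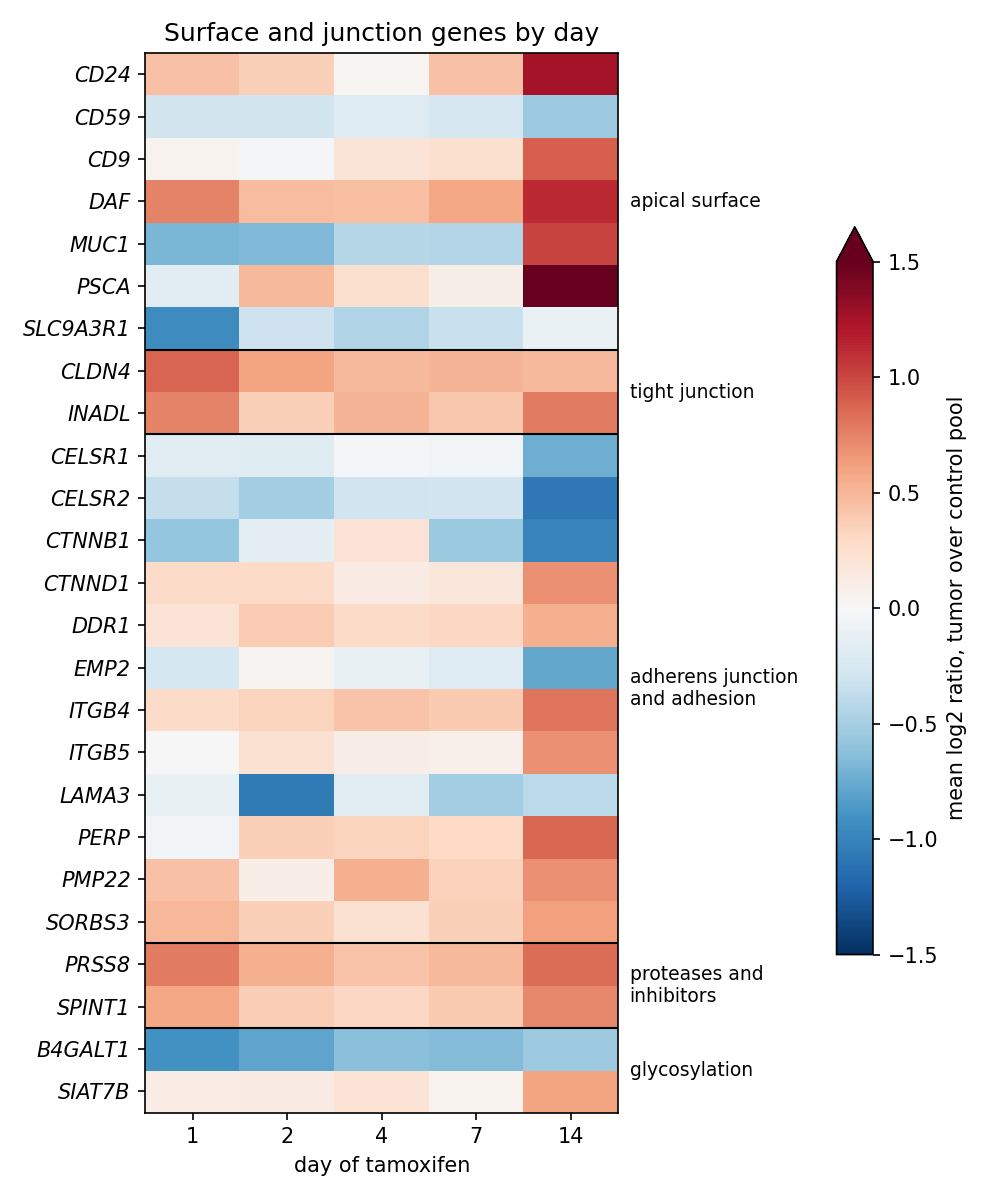
Mean log2 ratio of tumor over control pool by day of tamoxifen (columns) for the named genes of 5 lists (rows, each by its brightest probe, grouped at the right), in color from blue (below the pool) to red (above); the scale ends at -1.5 and 1.5, and PSCA on day 14 (3.40) lies beyond it. MUC1 turns from blue to red at day 14, while CLDN4 is red on all 5 days.

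MUC1 parted from the estrogen-induced genes at day 14. Of 30 such genes listed, 20 were named, and 11 were called lower on day 1 and 16 on day 14, with none higher on either day. Their median was -0.72 on day 1, near the -0.69 of MUC1, and -1.13 on day 14, when MUC1 was at 1.02. TFF1, a secreted trefoil peptide, had -1.25 on day 1 and -2.08 on day 14. SERPINA6, GFRA1 and IGFBP4 had -2.57, -2.54 and -2.48 on day 14. Not called lower that day were CITED1 at -0.13 (tumors at -0.76 and 0.50), RGS2 at -0.26, SLC9A3R1 at -0.10 and MYB at -0.57. Of these, CITED1, RGS2 and SLC9A3R1 had been called lower on day 1, at -1.17, -0.74 and -0.94. Of all probes, 3.57% were called lower on day 1 and 2.93% on day 14. Only named genes enter this list's counts, and all of them were on the study's list, which took them for change in these tumors.

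Genes listed as markers of other cell types also moved on day 14. The tumor cells are human and the host cells of these xenografts are from the mouse. Which of them these probes read was not tested. The 3 named of 22 fibroblast and matrix markers, FN1, LGALS1 and MGP, were all called lower on day 14, at -0.62, -0.68 and -1.14. Of all probes, 3.28% were called higher and 2.93% lower that day. The mean of these 3 markers per tumor was between -1.08 and -0.55 on day 14 against -0.40 to 0.10 in earlier tumors. Of 14 basal and myoepithelial markers, 3 were named: ITGB4 (0.81) and MYLK (0.77) were called higher on day 14 and LAMA3 was at -0.41, and the mean of the 3 was 0.35 to 0.43 in the tumors of day 14 and at most 0.24 in earlier ones. The 6 named luminal markers other than MUC1 and CLDN4 had tumor means of -0.16 to -0.02 on day 14 and of -0.34 to 0.05 before it, with TFF1 and TFF3 lower and CD24, ERBB3, PRSS8 and SPINT1 higher. None of the 17 macrophage and leukocyte markers or the 13 endothelial markers was named. Of 11 erythroid genes, HBG1 had a probe of its own, at -0.79 on day 1, 0.10 on day 7 and -1.11 on day 14, none of which passed the test. A further 4 probes carry the joint name of 4 other hemoglobin genes on the list, HBZ, HBA1, HBA2 and HBQ1, which they do not tell apart, and had means of -0.80 to -0.66 on day 1, 0.12 to 0.21 on day 7 and -1.07 to -0.91 on day 14. The part of cell composition in the values of MUC1 and CLDN4 was not tested.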

How the data were processed

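A total of 32 cDNA arrays of 2 colours held RNA of 16 tumors from 12 mice. Intensity was deposited as the scanner gave it: the brightness of each spot and its local background in both channels, neither corrected nor normalized, per the file headers. The log2 values deposited as the authors' table (9928 probes, 665 missing values, column medians from -0.01 to 0.01) are ratios made with limma, of a version not given in the sources used here, by background correction, loess and quantile normalization. They served as an alternative. Their log base and direction are taken from how they follow the scanner values, with correlations down to 0.216 (day 7 replicate 4, forward).

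The scanner values were processed in R (4.3.3) by limma (3.58.1), with statmod (1.5.0). Between 1 and 393 spots of an array bore the mark 0 and were dropped, normexp with an offset of 50 removed background, and loess within and quantile normalization between arrays followed. The sign of dye swaps was turned, and the arrays of a tumor were averaged. Across all probes limma was fitted with a mean for each day and a random block for the mouse, with Benjamini-Hochberg adjustment at 0.05 and the pool as 0. The dye effect was fitted likewise on 15 tumors. The fit by day was tested on simulated tumor values with a rise put in on day 14 and no mouse effect. The normalization, the averaging of arrays and the dye fit were not tested in this way. The number of arrays limits the precision. Replicates are tumors, some from the same mouse, and p-values measure the spread between them.

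Names come from the study's list (333 probes, 253 symbols), positions from RefSeq on GRCh38. Of the symbols, 1 joins 4 hemoglobin genes and was left out of the lists. A gene is represented by its brightest probe, except that all probes of MUC1 and CLDN4 are described. From each of 13 gene lists up to 4 genes with the largest mean on any day are named, with the 5 genes most like and the 3 least like each member by Pearson's r over tumors. MUC1, CLDN4, the lists and the tests were chosen with earlier results of these data known. RUNX1 and the dye effects of genes like CLDN4 were picked after their values were seen. Alternatives were other background corrections and normalizations, all spots kept, dim probes left out, each orientation alone, all arrays as labelled, array weights, 1 mean per mouse, no mouse block, a replicate block, each CLDN4 probe alone, the authors' table and leaving out each tumor.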

Additional observations from a re-analysis of the deposited data

Results flagged for a closer look

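In probe 346130_B of CLDN4, 1 of the 4 tumors of day 7, replicate 2, stood apart from the others at a log2 ratio of 0.67. Chance sets apart about 1 in 20 groups of this size. By CLDN4 probes 153508_A and 346510_A the same tumor was at 0.58 and 0.53, beside 0.57 and 0.58 for replicate 3, so it did not stand apart there. MUC1 was below the pool in every tumor of days 1, 2 and 7, with means of -0.69, -0.66 and -0.44, and above it in both tumors of day 14 (mean 1.02). The difference between these days was not tested, since MUC1 was chosen with this course in view.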

How the results depend on the processing

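All 6 values followed for MUC1, its 5 day means and the difference of day 14 and day 7, kept their sign and moved by less than the SD within days under each of 17 other settings and each of 16 left-out tumors. Its day 14 mean was 0.72 to 1.31 over the settings, lowest on dye swaps alone and highest on forward arrays alone. With a tumor left out it was 0.98 to 1.05, on day 1 it was -0.83 to -0.57, and on day 4 it was -0.58 to -0.22, the last without day 4 replicate 3. CLDN4 moved with the orientation. On forward arrays alone its means for days 1, 2, 4, 7 and 14 were 1.47, 1.04, 0.85, 1.00 and 1.20. On dye swaps alone they were 0.15, -0.050, -0.095, -0.020 and -0.17, so on 4 of 5 days the sign turned. With all arrays as labelled, the array left out included, day 4 was 0.19. No other setting moved a CLDN4 mean by more than the SD within days, though with median centring and no loess the means were 0.86, 0.28, 0.31, 0.50 and 0.71, a rise from day 2 to day 14. With a tumor left out day 1 was 0.68 to 0.93 and day 14 was 0.35 to 0.68. The dye effect of the CLDN4 probes passed the test under 4 other settings and with each of 15 tumors left out, with 0.50 to 0.55, 0.57 to 0.61 and 0.57 to 0.62 when a tumor was left out. With a replicate block MUC1 was 0.92 on day 14 and CLDN4 0.74 on day 1. Same-numbered tumors of different days had correlations of their deviations between -0.18 and 0.18 (24 pairs), and the labels do not tie the numbers to animals. In the authors' table MUC1 was -0.25 on day 7, and -0.53 without the forward column of day 7 replicate 4, an alternative chosen after seeing the data. The probes called against the pool on day 14 numbered 615, between 30 (without day 14 replicate 2) and 1440 (with array weights), and on day 1 649, between 26 (1 mean per mouse) and 1872 (forward arrays alone). Days 2 and 14 have 2 tumors each, which limits what their spread can show.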

Other observations

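A probe with no name in the study's list, 346130_A, differs from the CLDN4 probe 346130_B in the last letter of its identifier alone, and it went the other way. Its log2 ratio was between -1.51 and -0.20 over the 16 tumors, with a mean of -0.73. It was also dim, with a median signal over background of 3.30 against 44.1 for 346130_B. Whether both come from 1 clone is not given in the sources used here, and the difference was not tested.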
